A study of Mus musculus with 24 samples.

Results

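The hippocampus was sequenced 10 days after pituitary stalk electrical lesion (PEL), an operation that burns through the pituitary stalk, the link between hypothalamus and pituitary, with a cathodic current. These are 6 of the 24 RNA samples of the series, chosen by their labels: 3 hippocampal samples of PEL mice at day 10 and 3 hippocampal samples of Sham mice, which carry the label day 0. According to the methods the animals were male C57BL/6J mice, and no age, allele or further treatment is given for these 6. The labels state neither the interval between sham surgery and collection nor how the hippocampus was dissected, and they do not say that the samples came from separate animals, so the p-values measure the spread between these samples. One library titled hippocampal Sham 3 has hypothalamus as its tissue entry; its title decided, and it counts as hippocampus.

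The libraries were first checked against the tissue they are labelled with. *Neurod6*, a transcription factor of hippocampal and cortical excitatory neurons, was at 118, 99.1 and 127 FPKM (fragments per kilobase of exon, scaled to library size) in PEL 1 to 3, 177 and 143 FPKM in Sham 2 and Sham 3, and 0.429 FPKM in Sham 1. *Avp* (vasopressin) was at 139 FPKM, *Oxt* (oxytocin) at 114 FPKM and *Pmch* (melanin-concentrating hormone) at 606 FPKM in Sham 1, against at most 0.482, 0.473 and 1.27 FPKM in the other hippocampal libraries. The library labelled Sham 1 therefore carried hypothalamic and not hippocampal markers, and it was left out of the main comparison, which has 3 PEL and 2 Sham libraries; the result with it is given as well. A library labelled hypothalamus Sham 1 had 92.2 FPKM of *Neurod6* and 0.453 FPKM of *Avp*. Its values are shown beside some genes as a description and entered no hippocampal test. Each Sham 1 library thus carried markers of the tissue the other is labelled with, and the labels do not say whether the pair was exchanged; both keep their labels here. From here on, levels are listed in the order PEL 1, PEL 2, PEL 3 and Sham 2, Sham 3, and effects are log2 fold changes of PEL over Sham with the standard error (SE). Total counts in the 6 libraries ran from 15194955 to 17973494. Counts of Sham 1 differed from those of Sham 2 and Sham 3 with a chi-square per degree of freedom of 164 and 167, while the other replicate pairs gave 4.11 to 11.6.

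**Figure D1:**
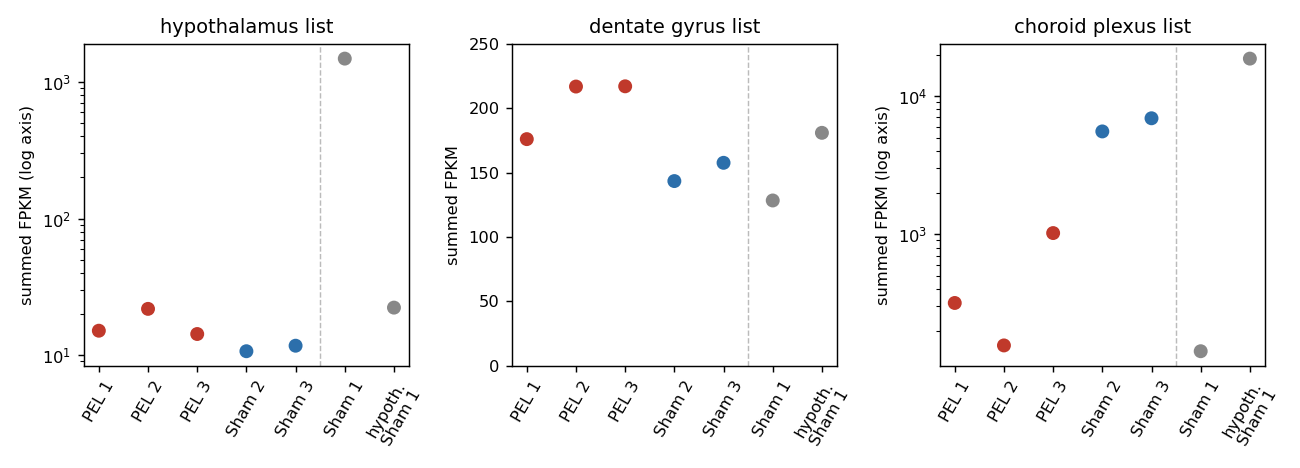
Summed FPKM of 3 marker lists in each hippocampal library and in the library labelled hypothalamus Sham 1 (grey, right of the dashed line with hippocampal Sham 1). Hippocampal Sham 1 had 1485 FPKM over the hypothalamus list against 10.7 to 21.8 in the 5 other hippocampal libraries, and the choroid plexus list separated PEL (156 to 1019) from Sham 2 and Sham 3 (5546 and 6907); the axes of the left and right panels are logarithmic.

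As background, the hippocampus is a layered cortex in which granule cells of the dentate gyrus, pyramidal cells of the CA fields and many kinds of interneuron serve the forming of memories. The fimbria borders the lateral ventricle, where choroid plexus, a secretory epithelium that makes cerebrospinal fluid, hangs beside the tissue. Stalk lesions cut the axons of the hypothalamic neurons that make oxytocin and vasopressin. The study asked whether the hippocampus, which carries receptors for both peptides, changes afterwards. Its particular interest was in the ERK kinases and in deposition of beta-amyloid, a piece of the amyloid precursor protein.

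Over 14191 genes tested, 577 genes were lower in PEL and 296 higher at an adjusted p under 0.05, which is 4.07% and 2.09% of the genes and 6.15% in either direction. Of the gene lists compared, choroid plexus held the most lower genes. The median log2 fold change of the higher genes outside the choroid plexus, ependyma and leptomeninges lists was 0.45, and 31 of these 295 exceeded a 2-fold change. The median over all genes tested was 0.01. In 43.7% of the genes the PEL and Sham libraries did not overlap, so an absence of overlap is common background with 3 against 2 libraries.

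These counts rested on few libraries. With Sham 1 added, edgeR called 0 of 14039 genes (0%). At an unadjusted p under 0.05 it had 510 higher (3.63%) and 924 lower (6.58%). DESeq2 called 39 higher and 192 lower over the 6 libraries (1.65%). Leaving out Sham 2 left 2 higher and 104 lower, and leaving out Sham 3 left 7 higher and 64 lower; in both, the lone Sham library was taken to vary like the PEL libraries. Without PEL 1 the counts were 703 and 1043, and without PEL 2 they were 87 and 283. Of 51 gene lists compared, 41 held at least 1 called gene, against 10 without Sham 2, 8 without Sham 3 and 30 without PEL 2. Leaving out PEL 1 worked the other way, and 34 lists then held more than 1.5 times as many calls. The calls in most lists described here therefore rest on both Sham libraries. Shares called are to be read against 2.09% of all genes higher, 4.07% lower and 6.15% in either direction.

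**Figure D2:**
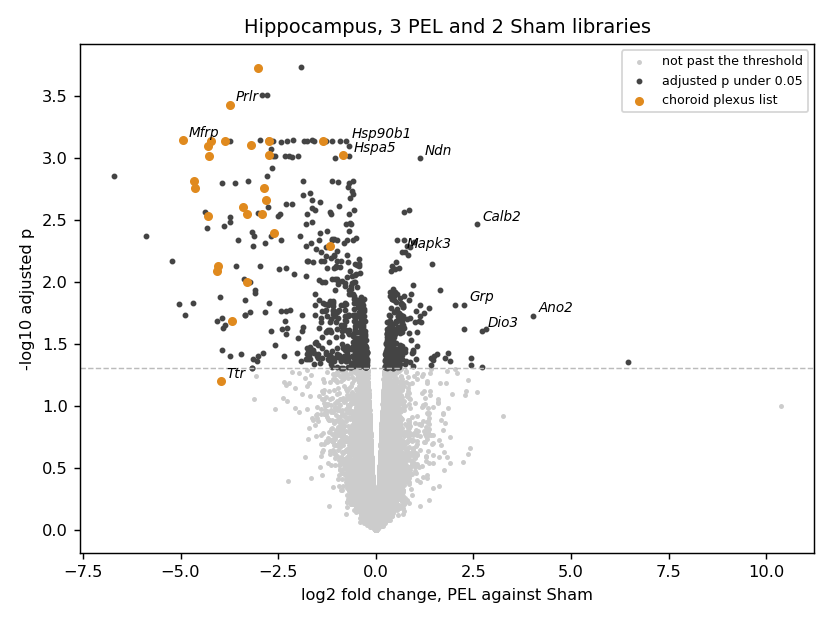
Log2 fold change against -log10 adjusted p for the 14191 genes tested in 3 PEL and 2 Sham libraries, with the dashed line at an adjusted p of 0.05. The 27 genes of the choroid plexus list (orange) all lie left of 0 and 26 of them above the line, and both rightmost points, *Pla2g4b* and *Gm45837*, were listed at 0 FPKM in both Sham libraries.

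Choroid plexus genes were lower in PEL almost without exception. Of 27 genes on the list 27 were tested and 26 fell, with a median log2 fold change of -3.40 against 0.01 over all genes. *Ttr*, the thyroid hormone carrier that choroid plexus secretes, had the highest level of the list, 116, 28.5 and 767 FPKM in PEL and 4157 and 5224 FPKM in Sham. Every PEL library was below both Sham libraries, but the PEL libraries themselves spanned a wide range, and *Ttr* alone of the list missed the threshold (log2 fold change -3.96 ± 1.04 SE, adjusted p = 0.064). *Enpp2*, which encodes the secreted enzyme autotaxin, was at 121, 69.1 and 141 FPKM in PEL and 879 and 1081 FPKM in Sham (log2 fold change -3.20 ± 0.26 SE, adjusted p = 7.86e-04). *Kl*, encoding the anti-ageing protein klotho, was at 6.52, 5.903 and 12.96 FPKM in PEL and 55.2 and 65.1 FPKM in Sham (log2 fold change -2.85 ± 0.28 SE, adjusted p = 0.0018). *Folr1*, the receptor that carries folate into cerebrospinal fluid, was at 1.95, 1.52 and 4.41 FPKM in PEL and 35.7 and 39.2 FPKM in Sham (log2 fold change -3.87 ± 0.30 SE, adjusted p = 7.34e-04).

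The prolactin receptor *Prlr* was at 1.86, 1.03 and 1.04 FPKM in PEL and 14.9 and 14.1 FPKM in Sham (log2 fold change -3.73 ± 0.23 SE, adjusted p = 3.71e-04). *Mfrp*, a frizzled-related membrane protein, had the deepest fall of the list, from 15.03 and 15.8 FPKM in Sham 2 and Sham 3 to 0.439, 0.146 and 1.27 FPKM in PEL 1 to 3 (log2 fold change -4.94 ± 0.35 SE, adjusted p = 7.22e-04). The smallest p belonged to *Sulf1*, a sulfatase that trims heparan sulfate (2.54, 1.599 and 2.85 FPKM in PEL and 17.9 and 21.5 FPKM in Sham; log2 fold change -3.02, adjusted p = 1.87e-04). *Car12*, a carbonic anhydrase, and *Cab39l*, a scaffold partner of the LKB1 kinase, fell less (-1.16 and -1.34 on the log2 scale), and the augurin gene *1500015O10Rik* (*Ecrg4*) fell by 3.40 on the log2 scale. Within the PEL group the order PEL 3 above PEL 1 above PEL 2 was read from *Ttr*, which is itself on the list. It held for 74.1% of the list, *Ttr* included, and for 14.4% of all genes tested. As the order came from these same data, the share is a description only. Summed over the list the level was 318, 156 and 1019 in the PEL libraries and 5546 and 6907 in Sham 2 and Sham 3, and none of the 27 genes was at 0 in any hippocampal library. Without Sham 2, 21 of the 27 were still called lower, without Sham 3 13, and with Sham 1 by edgeR 0 and by DESeq2 5, with all 27 below 0 and a median of -2.92.

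In the library labelled hypothalamus Sham 1 the list summed to 18676 FPKM and *Ttr* reached 14319.7 FPKM. The labels do not say how much choroid plexus was collected with each hippocampus. In bulk RNA of this kind fewer cells of a type and less RNA per cell cannot be told apart, and neither can a difference in dissection and an effect of the lesion where all libraries of a group share it.

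Fewer genes were called on the lists of the ciliated and connective tissue neighbours of the plexus. Of 14 ependyma genes, which build the motile cilia of the ventricle wall, 3 fell and 0 rose, with a median of -0.76: *Pifo* (-1.99, adjusted p = 0.029), *Cfap126* (-1.15, adjusted p = 0.040) and *Rsph1* (-1.11, adjusted p = 0.049). Their summed level was 101, 49.2 and 40.6 in the PEL libraries and 94.4 and 99.6 in Sham 2 and Sham 3, so PEL 1 was as high as Sham. Without PEL 1 11 of the 14 were called lower, and without PEL 2, Sham 2 or Sham 3 0 were. Of 18 leptomeninges genes 15 were tested, 3 fell and 1 rose. *Igf2*, a growth factor of meninges and choroid plexus, was at 9.32, 6.99 and 10.7 FPKM in PEL and 53.2 and 65.3 FPKM in Sham (log2 fold change -2.77 ± 0.19 SE, adjusted p = 7.22e-04). *Slc13a4*, a sulfate transporter (-3.28), and *Igfbp2*, a binding protein for insulin-like growth factors (-2.45), fell with it. *Dcn*, the proteoglycan decorin, went the other way, at 26.7, 65.005 and 18.4 FPKM in PEL and 5.46 and 4.83 FPKM in Sham (log2 fold change 2.82 ± 0.54 SE, adjusted p = 0.024). Leaving these 3 lists out before normalization gave 265 higher and 568 lower genes.

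Of the 577 lower genes, 32 belonged to these 3 lists with a median log2 fold change of -3.24. Another 97 were at least 2-fold higher in the choroid plexus-rich library labelled hypothalamus Sham 1 than in both Sham 2 and Sham 3, a criterion set after the values were seen, and their median was -1.75. By this criterion 70.4% of the choroid plexus list, 20.6% of all lower genes, 4.05% of the higher genes and 2.58% of all genes tested stood out. The remaining 448 lower genes had a median of -0.56, and 125 of them fell more than 2-fold.

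The 12 deepest falls outside the 3 lists, among genes with a mean of at least 1 CPM (counts scaled to library size) and no overlap of libraries, were in genes of very low level in the PEL libraries. *Pon1*, a serum paraoxonase, had 1 count in the PEL libraries together and 92 in Sham 2 and Sham 3, a ratio per library size of 142 in favour of Sham (95% exact binomial interval 24.9 to 5673, counting error only). *Rrh*, an opsin-like protein that binds retinal, had 3 and 80 counts, a ratio of 41.2 (13.6 to 204). *Abca4*, a retinoid transporter best known from the retina, was at 0.328, 0.207 and 0.717 FPKM in PEL and 4.35 and 6.44 FPKM in Sham (log2 fold change -3.73 ± 0.28 SE, adjusted p = 7.34e-04). The melanosome transporter *Oca2* was at 0.185, 0.071 and 0.379 FPKM in PEL and 2.48 and 2.68 FPKM in Sham (-3.73). *Cdh3*, a cadherin of epithelia, was at 0.072, 0.013 and 0.116 FPKM in PEL and 1.101 and 1.63 FPKM in Sham (-4.39), and *Col17a1*, a collagen of hemidesmosomes, at 0.022, 0.041 and 0.058 FPKM in PEL and 0.595 and 0.638 FPKM in Sham (-3.94).

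The others were the nucleoside transporter *Slc28a3* (-4.67), the serine protease *Tmprss11a* (-4.05), the sulfotransferase *Sult1c2* (-3.99), the immunoglobulin-like *Igfn1* (-3.89), and *Wdr72* and *Wdr86* (-3.73 and -3.62), both with WD repeats. None exceeded 0.717 FPKM in a PEL library. *Pon1*, *Rrh*, *Slc28a3*, *Cdh3*, *Tmprss11a*, *Sult1c2*, *Col17a1*, *Igfn1* and *Wdr72* had under 10 counts in each PEL library. They passed the count filter only through the Sham libraries, where they were higher, so their falls are descriptive and support nothing further. In the library labelled hypothalamus Sham 1 *Abca4* stood at 20.2 FPKM and *Wdr86* at 13.3 FPKM. *Oca2* was at 5.71 FPKM and *Cdh3* at 4.05 FPKM there, and all of these were above Sham 2 and Sham 3. *Rrh* alone was lower there, at 1.98 FPKM against 2.09 and 2.11 FPKM in Sham 2 and Sham 3. *Pon1* (2.34 FPKM) and *Igfn1* (1.76 FPKM) were only a little above the higher of the Sham libraries (2.18 and 1.55 FPKM). What part choroid plexus had in these falls was not tested.

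Of 20 genes on the chaperone list 9 fell, by small amounts, and 11 did not pass. All 20 were tested and all 20 had a log2 fold change below 0, as had 48.4% of all genes. The median was -0.37. The 9 are 45% of the list, against 4.07% of all genes in that direction. The leading members are chaperones of the endoplasmic reticulum, where secreted and membrane proteins fold. *Hspa5* (BiP; chr2:34771970-34777547, plus strand, GRCm38) was at 90.6, 91.8 and 85.8 FPKM in PEL and 149.98 and 138 FPKM in Sham (log2 fold change -0.70 ± 0.061 SE, adjusted p = 9.62e-04). *Hsp90b1* (GRP94) was at 119, 124 and 112 FPKM in PEL and 206 and 190.1 FPKM in Sham (log2 fold change -0.77 ± 0.061 SE, adjusted p = 7.34e-04). The calcium-binding chaperone *Calr* was at 155, 154 and 143 FPKM in PEL and 231 and 209 FPKM in Sham (log2 fold change -0.57 ± 0.062 SE, adjusted p = 0.0026). *Pdia4*, a disulfide isomerase, was at 20.9, 18.7 and 17.7 FPKM in PEL and 29.5 and 26.4 FPKM in Sham (log2 fold change -0.57 ± 0.085 SE, adjusted p = 0.010). In each of these genes the PEL libraries lay close together and below both Sham libraries.

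The other called members were *Manf*, a secreted protein of endoplasmic reticulum stress (-0.53, adjusted p = 0.025), the cytosolic chaperones *Hsp90aa1* (-0.36, adjusted p = 0.020), *Hsph1* (-0.34, adjusted p = 0.025) and *Dnaja1* (-0.26, adjusted p = 0.049), and the mitochondrial *Hspd1* (-0.31, adjusted p = 0.037). *Hspa1a* and *Hspa1b*, the heat-inducible pair, had log2 fold changes of -0.38 and -0.52 with adjusted p = 0.080 and 0.053; they are near-identical copies that share reads. Chaperones of the reticulum were also high in the library labelled hypothalamus Sham 1 (*Hspa5* 219 FPKM, *Pdia4* 50.4 FPKM), whereas its *Hsp90aa1* (445 FPKM), *Hsph1* (101 FPKM) and *Dnaja1* (145 FPKM) were below Sham 2 and Sham 3. Within the PEL group *Ttr* ran from 28.5 to 767 FPKM and *Hspa5* from 85.8 to 91.8 FPKM. What part choroid plexus had in the chaperone falls was not tested. Sham 1, which carried hypothalamic markers, had 201 FPKM of *Hspa5*. With Sham 1 in the fit all 20 genes stayed below 0 (median -0.32), with 0 called by edgeR and 6 by DESeq2. Without Sham 2, 2 of the 20 were called, and without Sham 3, 3.

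Promoter sequences of the 3 leading chaperone genes are shown because these genes share an element. The windows are RefSeq sequences of GRCm38.p6, upstream of the transcription start, in the direction of the gene; capitals mark each match to the endoplasmic reticulum stress response element, CCAAT and CCACG with 9 bases between them, or to the same letters on the other strand. The *Hspa5* run is kept to 29 bases because GENCODE M21, unlike RefSeq, starts the transcript upstream of it, in which case it belongs to the 5′ UTR.
*Hspa5* (chr2:34772020-34772048, plus strand): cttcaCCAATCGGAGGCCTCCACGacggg
*Hsp90b1* (chr10:86705503-86705686, minus strand): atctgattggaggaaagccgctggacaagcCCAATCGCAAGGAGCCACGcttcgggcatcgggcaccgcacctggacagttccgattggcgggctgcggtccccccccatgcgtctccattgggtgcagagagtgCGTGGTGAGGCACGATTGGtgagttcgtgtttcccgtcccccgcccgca
*Calr* (chr8:84847045-84847123, minus strand): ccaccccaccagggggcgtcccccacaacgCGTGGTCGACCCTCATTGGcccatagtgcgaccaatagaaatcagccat

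The element begins 65 bases before the start in *Hspa5* and 162 bases before it in *Calr*, where it reads on the other strand. *Hsp90b1* holds 2 copies, at 212 and 107 bases, the nearer one on the other strand. It occurs in 0.119% of 32851 RefSeq promoter windows (250 bases before to 50 after the start, both strands), or at 0.137% of 27025 genes, and at 4 of the 15 list members with a window. The fourth is *Creld2*, whose log2 fold change was -0.18, adjusted p = 0.449. The element was looked for after the falls were known. The heat shock element GAANNTTC was found at 8 of the 15 members against 9.04% of all genes (7.86% of windows), among them *Hsph1*, *Hspd1* and *Dnaja1*. For the other motifs searched, the E-box CACGTG was at 3 of 15 against 8.09% of genes and the glucocorticoid receptor motif AGAACA at 2 against 21.3%. The D-box TTATGTAA and the cAMP response element TGACGTCA were at 0 against 1.11% and 2.03%. A match describes the letters and not a bound site.

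**Figure D3:**
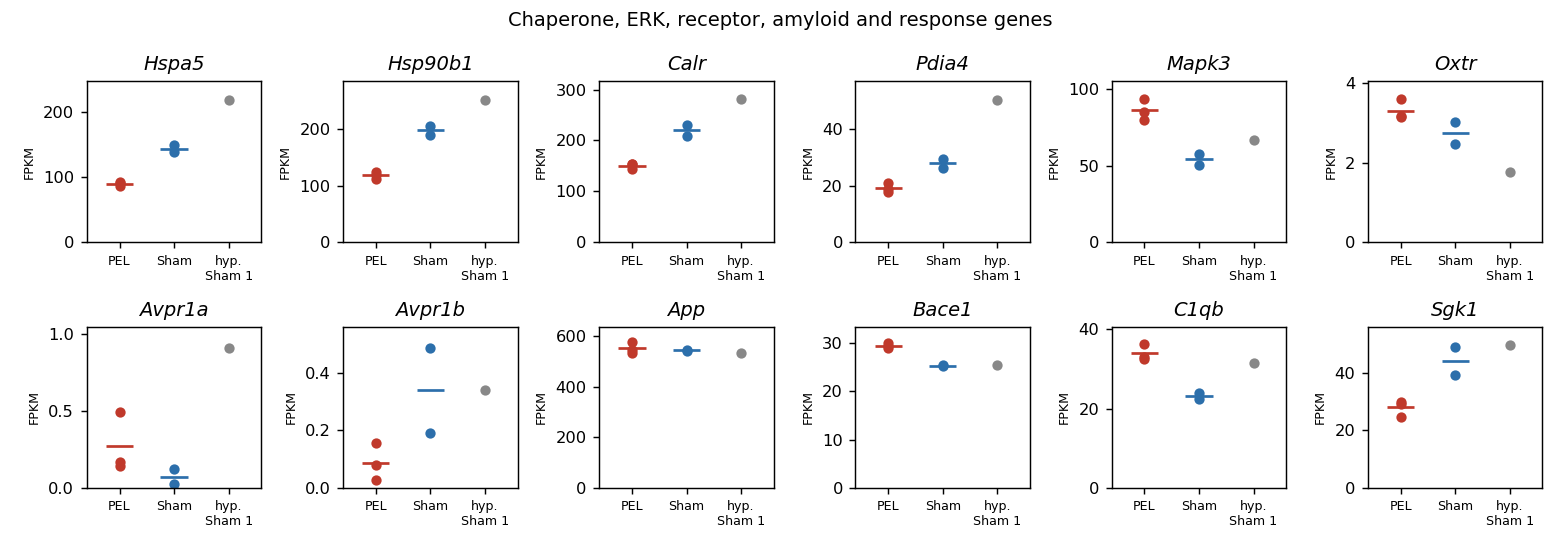
FPKM of 12 genes in PEL 1 to 3 (red), Sham 2 and Sham 3 (blue) and the library labelled hypothalamus Sham 1 (grey); points are libraries and bars group means. *Hspa5* was 85.8 to 91.8 in PEL against 138 and 149.98 in Sham, *Mapk3* 79.8 to 93.7 against 50.6 and 57.5, while the *App* values of both groups overlapped.

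Of the 13 protein-coding genes of the mitochondrial genome 5 fell and 8 did not pass. All 13 were below 0, with a median of -0.23, and those that fell were *mt-Nd4l* (-0.62, adjusted p = 0.0019), *mt-Nd3* (-0.67, adjusted p = 0.0021), *mt-Nd6* (-0.43, adjusted p = 0.0065), *mt-Nd2* (-0.38, adjusted p = 0.035) and *mt-Nd1* (-0.28, adjusted p = 0.049), all subunits of complex I. *mt-Nd3* was at 2572, 2268 and 2214 FPKM in PEL and 3734 and 3637 FPKM in Sham. GC content moved with this group: between the 2836 genes of lowest and the 2835 of highest GC the median log2 fold change ran from -0.11 to 0.12, and after the trend was removed from each library 2 of the 13 fell, 9 were below 0 and the median was -0.08. Of 83 nuclear genes of the respiratory chain, 6 fell and 0 rose (median -0.10), and the 7.23% called is near the 6.15% of all genes. The falls were led by the tissue-restricted subunits *Cox6b2* (0.651, 0.925 and 0.842 FPKM in PEL and 3.04 and 4.37 FPKM in Sham) and *Cox8b* (-3.95). Both were highest in the library labelled hypothalamus Sham 1, at 9.57 and 9.07 FPKM. The more abundant *Cox7b* (-0.34, adjusted p = 0.025) and *Atp5l* (-0.37, adjusted p = 0.028) fell less. Of 80 ribosomal protein genes 9 rose, 0 fell and 71 did not pass (median 0.10), with *Rpl3* at 368, 387 and 377 FPKM in PEL and 281 and 298 FPKM in Sham (0.36, adjusted p = 0.012), *Rpl12* at 0.29, adjusted p = 0.021 and *Rpl10a* at 0.31, adjusted p = 0.041. With the 3 ventricular lists left out 4 ribosomal genes were called, and with the GC trend removed 6 were. The GC trend ran over all genes and not this group alone. With it removed 9 of the 51 lists held fewer calls by over 1.5 times, and 6 held more by that factor. No ribosomal gene was called without Sham 2 or without Sham 3, and 1 without PEL 2; of the mitochondrial genes 1 was called without Sham 2 and 1 without Sham 3.

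Among genes that rose with a mean of at least 1 CPM and no overlap of libraries, the largest change belonged to *Ano2*, a calcium-activated chloride channel, at 3.77, 1.78 and 0.906 FPKM in PEL and 0.15 and 0.198 FPKM in Sham (log2 fold change 4.03 ± 0.71 SE, adjusted p = 0.019). *Dio3*, the deiodinase that inactivates thyroid hormone, was at 3.32, 5.08 and 1.75 FPKM in PEL and 0.617 and 0.468 FPKM in Sham (log2 fold change 2.71 ± 0.52 SE, adjusted p = 0.025). *Calb2* (calretinin; chr8:110137502-110168210, minus strand), a calcium-binding protein of hilar mossy cells, young granule neurons and some interneurons, was at 46.99, 40.5 and 22.2 FPKM in PEL and 6.02 and 5.897 FPKM in Sham (log2 fold change 2.59 ± 0.30 SE, adjusted p = 0.0034). PEL 3 was the lowest PEL library in each of these genes.

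*Grp*, the gastrin-releasing peptide, was at 15.3, 28.1 and 14.03 FPKM in PEL and 2.698 and 5.25 FPKM in Sham (log2 fold change 2.25 ± 0.37 SE, adjusted p = 0.015). *Ccn3*, a matricellular protein, was at 25.3, 62.3 and 47.7 FPKM in PEL and 12.5 and 17.8 FPKM in Sham (log2 fold change 1.56 ± 0.34 SE, adjusted p = 0.038). In both PEL 2 was the highest library. *Atp2b4*, a plasma membrane calcium pump, was at 22.5, 22.6 and 12.3 FPKM in PEL and 5.12 and 6.84 FPKM in Sham (log2 fold change 1.65 ± 0.25 SE, adjusted p = 0.012). *Dlk1*, an imprinted Notch-like ligand, was at 4.704, 5.87 and 1.39 FPKM in PEL and 0.668 and 0.781 FPKM in Sham (log2 fold change 2.43 ± 0.55 SE, adjusted p = 0.041). The vesicle release factors *Baiap3* (2.67, 2.47 and 1.01 FPKM in PEL and 0.604 and 0.512 FPKM in Sham; 1.86) and *Otof* (0.414, 0.939 and 0.559 FPKM in PEL and 0.168 and 0.203 FPKM in Sham; 1.77) and the phospholipase *Pla2g4e* (0.645, 0.845 and 0.921 FPKM in PEL and 0.146 and 0.239 FPKM in Sham; 2.02) were low in these 5 libraries, whereas Sham 1 had 114 FPKM of *Baiap3* and 3.44 FPKM of *Otof*. *Hba-a1* and *Hbb-bs*, the globins of red blood cells, rose by 2.25 and 1.90 on the log2 scale; they belong to families of near-identical genes, and all 7 tested genes of the red blood cell list were above 0.

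Levels in the library labelled hypothalamus Sham 1 split these genes. *Ano2* (4.94 FPKM), *Calb2* (48.1 FPKM), *Dlk1* (4.8 FPKM), *Baiap3* (3.402 FPKM) and *Atp2b4* (22.7 FPKM) were as high there as in PEL libraries, although that library is labelled Sham. *Dio3* (0.18 FPKM), *Grp* (0.472 FPKM), *Ccn3* (4.94 FPKM) and *Otof* (0.199 FPKM) were near or below Sham 2 and Sham 3. *Pla2g4e* (0.467 FPKM), *Hba-a1* (6.06 FPKM) and *Hbb-bs* (21.1 FPKM) lay between the Sham and the PEL libraries. Of 14 thalamus genes 12 were tested and 2 rose, *Calb2*, which is one of these genes itself, and *Ntng1*. Without *Calb2* the list summed to 70.5, 31.7 and 29.9 FPKM in PEL and 39.5 and 31.04 FPKM in Sham, so that PEL 1 alone was above both Sham libraries, and 7 of the 11 remaining genes tested were above 0 and 4 below. The hypothalamus list, of which 10 of 22 genes were tested and 1 (*Baiap3*) rose, summed to 15.1, 21.8 and 14.3 in the PEL libraries and 10.7 and 11.7 in Sham 2 and Sham 3, and 5 to 10 of its genes were at 0 in each of these 5 libraries. Their part in the rises was not tested.

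**Figure D4:**
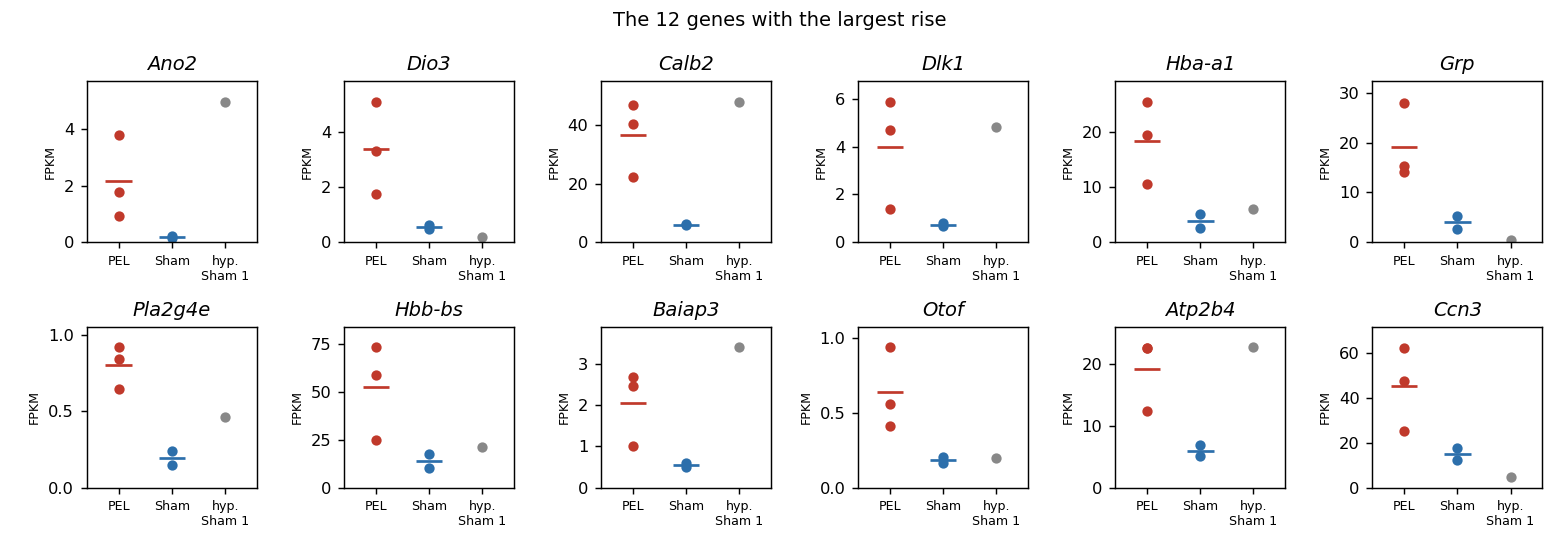
FPKM of the 12 genes with the largest rise, in PEL 1 to 3 (red), Sham 2 and Sham 3 (blue) and the library labelled hypothalamus Sham 1 (grey); points are libraries and bars group means. *Calb2* was 22.2 to 47.0 in PEL and 5.90 and 6.02 in Sham, and 48.1 in the grey library, whereas *Dio3* was 1.75 to 5.08 in PEL and 0.180 in the grey library.

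Markers of the hippocampal fields were present in both groups, and 2 genes of each list were called, a share of 14.3% in the dentate gyrus, 22.2% in CA1, 25% in CA2 and 22.2% in CA3 against 6.15% of all genes. Without Sham 3 none of the 4 lists had a call, and without Sham 2 CA2 had 1. Without PEL 1 the dentate gyrus had 7 calls, CA1 4, CA2 3 and CA3 3. For the dentate gyrus 2 of 14 genes rose and 0 fell (median 0.30): *C1ql2*, a synaptic organizer made by granule cells, at 24.4, 29.8 and 28.6 FPKM in PEL and 14.7 and 18.6 FPKM in Sham (log2 fold change 0.70 ± 0.12 SE, adjusted p = 0.019), and *Stxbp6* (0.38, adjusted p = 0.039). *Prox1*, the master regulator of granule cell identity, was at 17.4, 19.04 and 20.04 FPKM in PEL and 16.7 and 15.3 FPKM in Sham (0.23, adjusted p = 0.136). In CA1 *Fibcd1* rose (43.1, 50.6 and 51.7 FPKM in PEL and 28.9 and 35.2 FPKM in Sham; 0.58, adjusted p = 0.023) and *Spink8* fell (22.8, 18.8 and 23.95 FPKM in PEL and 36.4 and 30.6 FPKM in Sham; -0.63, adjusted p = 0.035), so the field had no single direction. In CA2 *Amigo2*, a cell adhesion protein, fell (-0.63, adjusted p = 0.011), and so did *Sostdc1* (-2.92), which is on the choroid plexus list too. In CA3 *Elavl2* (-0.36, adjusted p = 0.017), which is also on the young granule neuron list, fell with *Cpne4* (-0.31, adjusted p = 0.035) among 9 genes, with a median of -0.22.

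Of 19 interneuron genes tested 17 were above 0, against 51.6% of all genes, and 3 rose, *Calb2*, *Reln* (7.39, 8.91 and 6.59 FPKM in PEL and 4.73 and 4.596 FPKM in Sham; 0.69, adjusted p = 0.016) and *Gad1*, the enzyme that makes GABA (122, 119 and 108 FPKM in PEL and 96.7 and 93.6 FPKM in Sham; 0.27, adjusted p = 0.039). *Sst* was at 174, 226 and 209 FPKM in PEL and 154 and 141 FPKM in Sham with an adjusted p of 0.054. Of the young granule neuron list 11 of 12 were above 0, yet *Dcx*, the standard marker of newborn neurons, was at 2.76, 2.46 and 2.61 FPKM in PEL and 2.39 and 2.12 FPKM in Sham (0.29, adjusted p = 0.146). In the cell cycle list 1 of 14 genes, the replication helicase subunit *Mcm6*, rose (0.51, adjusted p = 0.039). Striatum and cortex markers each had 1 riser (*Rgs9* 0.59 and *Rprm* 1.14) and 1 faller (*Ppp1r1b* -1.11 and *Fam84b* -0.76). Both fallers were highest in the library labelled hypothalamus Sham 1. *Ppp1r1b* was at 115 FPKM there, against 47.4 and 53.9 FPKM in Sham 2 and Sham 3. *Fam84b* was at 16.2 FPKM there, against 7.94 and 7.98 FPKM. What part choroid plexus had in these 2 falls was not tested.

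Of 5 genes on the list of oxytocin and vasopressin receptors 3 were tested and 0 were called, 2 of them at an unadjusted p under 0.05; without PEL 1 2 of the 3 were called lower, *Avpr1b* and *Lnpep*, an aminopeptidase that cleaves oxytocin (-0.21, adjusted p = 0.126 over the 5 libraries). *Oxtr* (chr6:112473683-112489943, minus strand) was at 3.15, 3.59 and 3.18 FPKM in PEL and 2.47 and 3.02 FPKM in Sham, a mean of 3.31 ± 0.248 (SD, n = 3) against 2.75 ± 0.3896 (SD, n = 2). The lowest PEL library stood only just above Sham 3 in FPKM, and on the scale of the fit the groups overlapped (log2 fold change 0.23 ± 0.14 SE, adjusted p = 0.343). An exact two-sided permutation test of the FPKM gave p = 0.2 from the smaller tail counted on both sides, or p = 0.1 from the absolute difference. These are the smallest values that 3 against 2 samples allow, so the test could not pass the threshold and bears on neither outcome. With Sham 1, at 2.24 FPKM, the log2 fold change was 0.36 with an adjusted p of 0.527. *Avpr1b*, a vasopressin receptor, was at 0.156, 0.028 and 0.079 FPKM in PEL and 0.486 and 0.192 FPKM in Sham (-1.97, adjusted p = 0.113). *Avpr1a* was below the count filter at 0.494, 0.167 and 0.143 FPKM in PEL and 0.122 and 0.022 FPKM in Sham.

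In the ERK cascade 1 of 37 genes rose and 0 fell, with a median of -0.01 and 2.70% called against 6.15% of all genes. That gene was *Mapk3* (ERK1; chr7:126759601-126765819, plus strand), at 79.8, 93.7 and 85.5 FPKM in PEL and 50.6 and 57.5 FPKM in Sham (log2 fold change 0.66 ± 0.086 SE, adjusted p = 0.0057). With Sham 1, at 80.9 FPKM, *Mapk3* had a log2 fold change of 0.52 and an adjusted p of 0.389, and the library labelled hypothalamus Sham 1 lay between the groups at 66.9 FPKM. Of 17 ERK feedback inhibitors tested 0 were called (3 at an unadjusted p under 0.05); the smallest p was that of *Spred1* (-0.16, adjusted p = 0.116). Immediate early genes, which neurons switch on within minutes of activity, were below 0 in 27 of 34 cases, and 1 fell, *Ptgs2* (cyclooxygenase 2), at 5.69, 5.85 and 5.93 FPKM in PEL and 12.8 and 8.47 FPKM in Sham (log2 fold change -0.70 ± 0.096 SE, adjusted p = 0.0069). *Fos* was at 3.07, 4.54 and 7.17 FPKM in PEL and 7.24 and 8.35 FPKM in Sham (-0.69, adjusted p = 0.192) and *Arc* at 29.95, 22.3 and 53.7 FPKM in PEL and 43.01 and 46.7 FPKM in Sham (-0.37, adjusted p = 0.496), with PEL 3 the highest PEL library in both. Without PEL 3 5 of the 34 were called lower, *Arc*, *Bdnf*, *Fos*, *Npas4* and *Ptgs2*. RNA levels say nothing of ERK phosphorylation.

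Of 25 genes that make, cut or clear the amyloid precursor protein, 2 rose and 0 fell, with a median of 0.02. *App* itself was at 577, 546 and 532 FPKM in PEL and 545 and 541 FPKM in Sham (log2 fold change 0.00 ± 0.058 SE, adjusted p = 0.995). *Bace1*, the beta-secretase, was at 29.3, 30.1 and 28.9 FPKM in PEL and 25.3 and 25.4 FPKM in Sham (log2 fold change 0.19 ± 0.055 SE, adjusted p = 0.079). The risers were *Lrp1*, a clearance receptor (33.8, 34.7 and 30.5 FPKM in PEL and 31.2 and 27.4 FPKM in Sham; 0.28, adjusted p = 0.027), and *Ece2*, a peptidase (9.49, 9.05 and 7.06 FPKM in PEL and 5.397 and 5.603 FPKM in Sham; 0.59, adjusted p = 0.035). Both lose their direction with Sham 1, which had 50.3 FPKM of *Lrp1* and 32.1 FPKM of *Ece2*.

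Hormone-responsive lists had 1 to 3 called members each. The share called was 3.7% for glucocorticoid, 20% for thyroid hormone and 15.8% for growth hormone and IGF genes, against 6.15% of all genes. For cholesterol synthesis it was 8.7%. Of all genes tested 48.4% were below 0. Of 27 glucocorticoid response genes 1 fell, *Sgk1*, a kinase induced by corticosteroids, at 29.8, 24.7 and 29.2 FPKM in PEL and 39.3 and 48.9 FPKM in Sham (log2 fold change -0.69 ± 0.11 SE, adjusted p = 0.012), while *Fkbp5*, another standard target, was at 16.99, 18.7 and 18.8 FPKM in PEL and 20.3 and 19.04 FPKM in Sham (-0.14, adjusted p = 0.296). For thyroid hormone, *Dio3* and the receptor *Thra* (327, 376 and 362 FPKM in PEL and 265 and 282 FPKM in Sham; 0.34, adjusted p = 0.040) rose and *Aldh1a1* (33.5, 20.5 and 27.4 FPKM in PEL and 44.3 and 39.04 FPKM in Sham; -0.67, adjusted p = 0.049) fell among 15 genes, 12 of which were below 0. In the growth hormone and IGF list 3 of 19 fell: *Igf2* and *Igfbp2*, which the leptomeninges list also holds, and the receptor *Igf1r* (5.59, 4.78 and 4.64 FPKM in PEL and 6.76 and 6.17 FPKM in Sham; -0.39, adjusted p = 0.041). The cholesterol synthesis enzymes *Idi1* (20.1, 19.2 and 19.9 FPKM in PEL and 26.3 and 26.1 FPKM in Sham; -0.39, adjusted p = 0.019) and *Hmgcs1* (-0.25, adjusted p = 0.037) fell among 23 genes.

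Of 20 clock genes 3 rose and 0 fell, 15% against 2.09% of all genes in that direction; 1 was called without Sham 2 and 1 without Sham 3. *Npas2*, a partner of BMAL1, was at 9.296, 9.02 and 7.33 FPKM in PEL and 3.42 and 5.14 FPKM in Sham (log2 fold change 0.85 ± 0.093 SE, adjusted p = 0.0026). *Nr1d1* (REV-ERBα) was at 22.5, 22.2 and 24.3 FPKM in PEL and 12.6 and 16.1 FPKM in Sham (log2 fold change 0.65 ± 0.11 SE, adjusted p = 0.015). *Cry2*, a repressor of the loop, was at 28.2, 29.8 and 31.2 FPKM in PEL and 23.7 and 24.1 FPKM in Sham (0.29, adjusted p = 0.044). The labels give no time of day for the collection of either group.

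Of 40 potassium channel genes 6 rose and 1 fell (median 0.03), 17.5% against 6.15% of all genes. Without Sham 2 or Sham 3 0 were called, and without PEL 2 3. Among the risers were the sodium-activated *Kcnt1* (3.98, 4.06 and 3.71 FPKM in PEL and 2.18 and 2.12 FPKM in Sham; 0.80, adjusted p = 0.0052), the inward rectifier *Kcnj4* (22.4, 25.6 and 28.2 FPKM in PEL and 13.5 and 14.6 FPKM in Sham; 0.83, adjusted p = 0.0061), the channel partner *Kcnip3* (30.9, 36.3 and 30.99 FPKM in PEL and 24.2 and 23.6 FPKM in Sham; 0.43, adjusted p = 0.026) and the leak channel *Kcnk3* (1.05, adjusted p = 0.033). *Kcnq5*, which carries the M current, fell (-0.33, adjusted p = 0.034). Of 30 glutamate receptor genes 3 rose, the NMDA subunit *Grin3a* (7.27, 10.5 and 7.64 FPKM in PEL and 3.604 and 4.63 FPKM in Sham; 1.02, adjusted p = 0.017), the kainate subunit *Grik3* (7.06, 5.82 and 5.33 FPKM in PEL and 3.46 and 3.85 FPKM in Sham; 0.71, adjusted p = 0.016) and the AMPA auxiliary *Cnih3* (20.1, 33.8 and 29.1 FPKM in PEL and 10.03 and 13.6 FPKM in Sham; 1.17, adjusted p = 0.021), and 1 fell, the AMPA auxiliary *Shisa6* (-0.26, adjusted p = 0.040). GABA receptors had 0 calls among 15 genes (7 at an unadjusted p under 0.05), with *Gabrd* closest at 0.49, adjusted p = 0.061. Of 27 sodium and calcium channel genes 1, the T-type *Cacna1g*, rose (0.64, adjusted p = 0.019).

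At the synapse *Nrxn2* (0.33, adjusted p = 0.031), *Camk2g* (0.38, adjusted p = 0.039) and *Nlgn3* (0.27, adjusted p = 0.041) rose among 33 postsynaptic and plasticity genes whose median was -0.03. Of 32 synaptic vesicle genes *Sv2c* rose (0.68, adjusted p = 0.025) and *Slc17a8*, the third vesicular glutamate transporter, fell (1.28, 0.999 and 1.72 FPKM in PEL and 3.51 and 2.73 FPKM in Sham; -1.24, adjusted p = 0.0078). Among 26 neuropeptide and trophic factor genes *Grp* rose and the granin *Chgb* fell (273, 212 and 274 FPKM in PEL and 383 and 326 FPKM in Sham; -0.51, adjusted p = 0.045).

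Most glial and immune lists had a share of called genes near or below the 6.15% of all genes: 5% of astrocyte, 5.88% of reactive astrocyte, 6.25% of disease-associated microglia, 7.14% of interferon and 0% of endothelium, mural and myelin genes. Homeostatic microglia had 10% and complement 26.7%. Of 20 homeostatic microglia genes 19 were above 0 with a median of 0.31, and 2 rose, the complement subunits *C1qb* (36.3, 32.98 and 32.5 FPKM in PEL and 22.4 and 24.04 FPKM in Sham; 0.52, adjusted p = 0.015) and *C1qc* (32.7, 28.2 and 30.1 FPKM in PEL and 22.5 and 21.8 FPKM in Sham; 0.43, adjusted p = 0.032); 12 of the 20 had an unadjusted p under 0.05, as had 24.5% of all genes. Disease-associated microglia genes had 1 faller in 16, *Cd63* (-0.57, adjusted p = 0.041). Among complement genes the membrane regulators *Cd59a* (3.01, 1.97 and 2.37 FPKM in PEL and 9.996 and 9.14 FPKM in Sham; -1.99, adjusted p = 9.62e-04) and *Cd55* (-1.03, adjusted p = 0.012) fell while *C1qb* and *C1qc* rose. *Cd59a*, *Cd55* and *Cd63* were highest in the library labelled hypothalamus Sham 1, at 22.2, 11.4 and 134 FPKM. *Bst2* and *Ifi27*, interferon-inducible genes, were highest there as well, at 11.7 and 77.7 FPKM. What part choroid plexus had in these falls was not tested. The interferon-inducible *Bst2* (3.09, 1.897 and 2.96 FPKM in PEL and 5.44 and 8.104 FPKM in Sham; -1.38, adjusted p = 0.034) and *Ifi27* (-0.39, adjusted p = 0.041) fell, 2 of 28, and 0 of 14 class I and class II genes were called (2 at an unadjusted p under 0.05).

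The astrocyte glutamate transporter *Slc1a3* rose (162, 152 and 163 FPKM in PEL and 116 and 132 FPKM in Sham; 0.33, adjusted p = 0.035), the only call among 20 astrocyte genes, and of 17 reactive astrocyte genes *Steap4* fell (-2.19, adjusted p = 0.017; 0.682 and 0.829 FPKM in Sham 2 and Sham 3 and 2.81 FPKM in the library labelled hypothalamus Sham 1), while *Gfap* was at 208, 137 and 144 FPKM in PEL and 109.9 and 128 FPKM in Sham (0.43, adjusted p = 0.159). No call was made among 27 myelin genes, 24 of which were below 0 (median -0.25, 4 at an unadjusted p under 0.05). Their summed FPKM was 5239, 3137 and 2602 in the PEL libraries and 4202 and 4506 in Sham 2 and Sham 3, so PEL 1 was above and PEL 2 and PEL 3 below both Sham libraries. Without PEL 1 19 of the 27 were called lower. Among precursors *Cspg5* rose (0.46, adjusted p = 0.017). Endothelium (20 tested, 7 at an unadjusted p under 0.05) and mural cells (14 tested, 2) had 0 calls, as had border macrophages (4 tested, 0) and blood leukocytes (1 of 18 tested), whose summed level was at most 2.51 FPKM in these 5 libraries. The smallest p of each of these lists without a call was that of *Cldn5* (endothelium, 0.38, adjusted p = 0.052), *Rgs5* (mural cells, -0.31, adjusted p = 0.061), *Mrc1* (border macrophages, -0.73, adjusted p = 0.231), *Il7r* (blood leukocytes, 0.49, adjusted p = 0.583) and *Car2* (myelin, -0.40, adjusted p = 0.116). Of 8 pituitary genes 1 was tested, *Pomc* (2.30, adjusted p = 0.076).

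**Figure D5:**
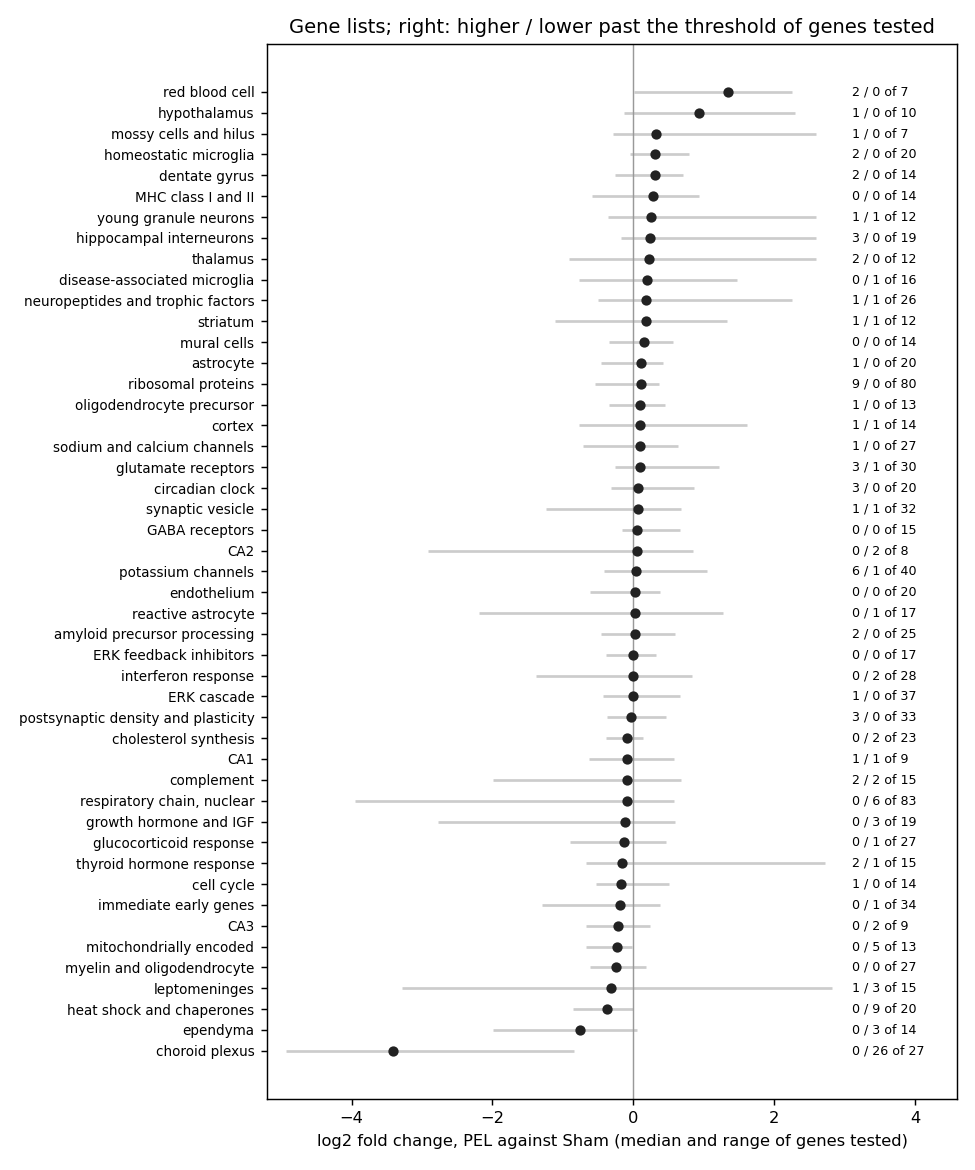
Median log2 fold change (points) and range (lines) of the tested genes of each list with at least 7 tested genes, with the number higher and lower past the threshold on the right. Choroid plexus stands apart with a median of -3.40, ependyma and chaperones follow with -0.76 and -0.37, and the red blood cell list is highest at 1.35.

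Hypothalamus of the same study at day 10 served to ask whether the hippocampal changes differ from those near the lesion. The interaction of tissue and lesion, with both Sham 1 libraries left out, called 1616 of 15053 genes (10.7%). Of 27 choroid plexus genes 23 had a more negative effect in hippocampus, 2 of which (*Mfrp* and *Steap1*) were below the count filter in hypothalamus alone; *Ttr*, *Slc4a5*, *Kcne2* and *Car12* did not pass (adjusted p = 0.125, 0.195, 0.248 and 0.091). The list summed to only 166 and 169 FPKM in hypothalamus Sham 2 and Sham 3, against 5546 and 6907 FPKM in hippocampus, so for genes near 0 there the difference largely restates the hippocampal fall. *Prlr* fell by 3.73 on the log2 scale in hippocampus and had -0.27 in hypothalamus (difference -3.43, adjusted p = 1.08e-04). In the fit of hypothalamus alone 9.4% of genes were called. *C1qb* was +0.52 in hippocampus and +2.34 in hypothalamus (difference -1.79, adjusted p = 1.81e-04). *Calb2* differed by 2.74 (adjusted p = 7.55e-04), *Hspa5* by -0.45 (0.0097) and *Mapk3* by 0.58 (0.014). For *Oxtr* the difference was 0.49 with an adjusted p of 0.295. With both Sham 1 libraries in the fit 94 genes were called; without PEL 2, Sham 2 or Sham 3 of the hippocampus the counts were 969, 688 and 602.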

How the data were processed

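The authors aligned reads with Hisat2, counted them with featureCounts and deposited 1 table of 22274 genes that gives, for the 24 samples, estimated counts and FPKM; the build is GRCm38 (mm10) per the labels, and strand is not given in the sources used here. Since 8.22% of the estimated counts the authors deposited have decimals, all were rounded. FPKM values, which the authors scaled to gene length and library size, were used for levels only. Symbols were matched for 22219 genes.

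PEL and Sham libraries were tested against each other in edgeR 4.0.16 under R 4.3.3 (quasi-likelihood test, TMM, filterByExpr with a minimum count of 10, Benjamini-Hochberg adjustment over all genes tested, threshold 0.05). "Called", "rose" and "fell" refer to this test. The methods of the study use DESeq2; version 1.42.0 was an alternative. The study's text says that an outlying Sham sample of the hypothalamus was not analysed, without its number, and names none for the hippocampus. Here Sham 1 of each tissue was left out for its markers. Other alternatives were DESeq2's size factors, count filters (none, or a mean of at least 50), the replicate block, one fit over all groups, each library left out, the 3 ventricular lists left out, a choroid plexus covariate and removal of a GC trend. Scripts were tested on simulated data.

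Named genes were the 12 largest rises and falls among called genes with no overlap of libraries and a mean CPM of at least 1, outside the choroid plexus, ependyma and leptomeninges lists, leaving out predicted genes, clone names and pseudogenes; genes of the oxytocin, ERK and amyloid question; up to 4 called members of each of 51 lists, or the one with the smallest p; and the 6 choroid plexus genes with the highest FPKM. Of these, 2 are not reported here. A few others, such as *Fos*, *Arc*, *Gfap*, *Prox1*, *Dcx*, *Sst*, *Fkbp5*, *Creld2*, *Kcnq5*, *Hspa1a*, *Pla2g4b* and the remaining called chaperone and complex I genes, were named after their values were seen. The samples compared and the lists were chosen with earlier results of these data known. Lists got no set test; their counts and medians stand beside those of all genes. Intervals on counts cover counting error only. Promoter windows are RefSeq sequences, and gene positions come from GENCODE M21. Plots were drawn with matplotlib 3.10.9 and tables handled with pandas 2.3.3.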

Additional observations from a re-analysis of the deposited data

Results flagged for a closer look

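In 70 of the 124 named genes the effect of PEL at day 10 differed between hippocampus and hypothalamus by the interaction term (edgeR quasi-likelihood test, adjusted p under 0.05; 10.7% of all genes tested passed). Many of the named genes were chosen by the hippocampal libraries that also enter this term, so their share is not a result. The values below are hippocampal minus hypothalamic log2 effects.

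*Mfrp*, *Cdh3* and *Col17a1* were below the count filter in the hypothalamic libraries alone, and their differences are close to the hippocampal falls themselves. The choroid plexus list summed to 166 and 169 FPKM in hypothalamus Sham 2 and Sham 3, against 5546 and 6907 FPKM in hippocampus. Choroid plexus, ependyma and leptomeninges genes had the more negative effect in hippocampus: *Mfrp* -4.73, *1500015O10Rik* -4.73, *Igf2* -3.80, *Slc13a4* -3.67, *Folr1* -3.56, *Enpp2* -3.51, *Igfbp2* -3.45, *Prlr* -3.43, *Sulf1* -2.98, *Sostdc1* -2.78, *Kl* -2.61, *Cfap126* -1.37 and *Cab39l* -1.17. Other genes with a more negative hippocampal effect were *Wdr86* -4.44, *Cdh3* -4.12, *Abca4* -3.98, *Col17a1* -3.94, *Wdr72* -3.64, *Steap4* -3.51, *Bst2* -3.18, *Cox6b2* -2.21, *Cd59a* -1.86, *C1qb* -1.79, *Ptgs2* -1.77, *C1qc* -1.77, *Aldh1a1* -1.45, *Cd63* -1.44, *Ifi27* -1.19, *Ppp1r1b* -1.18, *Fam84b* -1.16, *Tapbp* -1.01, *Cd55* -0.95, *Pdia4* -0.62, *Hsp90b1* -0.50, *Hspa5* -0.45, *Calr* -0.42 and *mt-Nd6* -0.33. In *C1qb* and *C1qc* the rise was larger in hypothalamus, and *Cd63*, *Bst2*, *Ifi27*, *Aldh1a1*, *Igf2*, *Igfbp2* and *Enpp2* fell in hippocampus and rose in hypothalamus. For *Idi1* and *Hmgcs1* the fall was larger in hypothalamus.

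Genes with a more positive hippocampal effect were *Ano2* 5.04, *Dio3* 3.06, *Dlk1* 2.74, *Calb2* 2.74, *Grp* 2.40, *Baiap3* 2.12, *Otof* 1.95, *Atp2b4* 1.87, *Pla2g4e* 1.71, *Grin3a* 1.35, *Kcnk3* 1.12, *Npas2* 1.07, *Cnih3* 1.05, *Sv2c* 0.96, *C1ql2* 0.96, *Rgs9* 0.92, *Grik3* 0.91, *Kcnt1* 0.81, *Ece2* 0.75, *Cacna1g* 0.65, *Cspg5* 0.61, *Nr1d1* 0.60, *Mapk3* 0.58, *Idi1* 0.57, *Kcnip3* 0.55, *Gad1* 0.54, *Nrxn2* 0.49, *Thra* 0.46, *Nlgn3* 0.45, *Slc1a3* 0.41, *Camk2g* 0.40, *Hmgcs1* 0.38 and *Cry2* 0.35. With both Sham 1 libraries included the number of genes called in this comparison was 94 in place of 1616.

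Signal in the libraries left out of the tests was also looked at. *Avp* was at 139 FPKM in the library labelled hippocampus Sham 1, against at most 0.482 FPKM in the other hippocampal libraries. *Neurod6* was at 92.2 FPKM in the library labelled hypothalamus Sham 1, against 0.246 and 0.209 FPKM in hypothalamus Sham 2 and Sham 3.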

How the results depend on the processing

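The counts of 296 higher and 577 lower genes moved with the libraries far more than with the tool. DESeq2 size factors in edgeR, DESeq2 itself, other count filters and leaving out the 3 choroid plexus, ependyma and leptomeninges lists kept both counts within 1.5 times. Asking for an absolute log2 change over 1 left 32 and 242, an unadjusted p under 0.05 gave 1664 and 1807, and one fit over all groups gave 597 higher genes. Leaving out each library in turn gave 2 to 703 higher and 64 to 1043 lower genes. With Sham 1, edgeR called 0 and 0, and DESeq2, added after the data were seen, called 231 in the 6 libraries. With the choroid plexus score as a covariate 0 and 0 were called; that score separates the 2 groups, so little of the group difference is left to test. Removing the GC trend, also added later, gave 201 and 405. For the interaction, 94 genes were called with both Sham 1 libraries, and 602 to 2244 with one hippocampal library left out, against 1616.

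Replicate numbers do not pair the animals by any label. Deviations of PEL 2 and Sham 2 correlated by -0.0045 and of PEL 3 and Sham 3 by -0.024. With 2 Sham libraries their deviations are mirror images, so these correlations can neither show nor exclude pairing. The replicate block gave 584 higher and 903 lower genes over 5 libraries, 0 and 0 with Sham 1, and 1732 for the interaction. Over 5 libraries PEL 1 is alone in its block and has no Sham partner. Leaving out PEL 1 without a block gave 703 higher and 1043 lower genes.

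Over the named genes and alternatives, 1470 values kept their direction and side of the threshold, 589 lost the call, 30 gained it and 61 changed sign. With Sham 1 the log2 fold changes that changed sign were *Baiap3* -4.04, *Calb2* -0.44, *Cpne4* 0.16, *Dlk1* -2.64, *Ece2* -0.63, *Grik3* -0.31, *Kcnk3* -0.42, *Kcnt1* -0.30, *Lrp1* -0.013, *Otof* -0.83, *Pomc* -4.17, *Rgs9* -0.71, *Rprm* -0.15, *Shisa6* 0.28 and *Sv2c* -0.38. With Sham 1 and the replicate block they were *Baiap3* -0.39, *Car12* 0.24, *Cpne4* 0.47, *Ece2* -0.18, *Pomc* -0.97, *Ptgs2* 0.53, *Rgs9* -0.21, *Shisa6* 0.88, *Spink8* 0.60 and *Sv2c* -0.024. With the choroid plexus score they were *1500015O10Rik* 0.59, *Aldh1a1* 0.28, *App* -0.047, *Atp2b4* -0.033, *Baiap3* -0.90, *Bst2* 0.20, *Cdh3* 0.92, *Chgb* 0.18, *Dcn* -1.28, *Dio3* -0.99, *Dlk1* -1.88, *Ece2* -0.12, *Fam84b* 0.77, *Igfbp2* 0.067, *Kcnip3* -0.013, *Ntng1* -0.17, *Oca2* 0.69, *Pifo* 0.79, *Ppp1r1b* 0.046, *Reln* -0.20, *Rrh* 1.55, *Slc28a3* 5.10, *Sostdc1* 0.58, *Spink8* 0.067, *Sult1c2* 3.02, *Tmprss11a* 5.86, *Ttr* 5.04 and *Wdr72* 0.032. *App*, near 0 in the main comparison, was at -8.21e-04 (DESeq2), -8.27e-04 (its size factors in edgeR), -0.0035 (genes of any count), -0.0043 (mean of 50 or more), -0.0074 (the 3 lists left out), -0.025 (the replicate block), -0.025 (PEL 1 left out) and -0.0071 (Sham 3 left out); without PEL 2 it was at 0.010. The causes were not tested.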
